A study of Triticum aestivum with 21 samples.

Results

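The subject here is a set of 66 wheat probe sets that were bright in the anther at every stage measured and whose level hardly moved between stages. They were chosen on the data themselves: every one of the 7 stage means was above 8 on the log2 scale (a linear intensity of 256) and the highest and lowest stage means differed by at most 0.25 (log2), which is 1.19-fold. The rule was applied to 61162 of the 61290 probe sets of the array. It set aside 111 control probe sets and 17 that had been measured or used as controls by quantitative PCR. Of the 61162, 8947 were bright at every stage, and the 66 members were 0.738% of these. The other 8881 bright probe sets are the comparison used below.

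The study followed whole anthers of wild-type bread wheat (Triticum aestivum, cultivar Chinese Spring), grown untreated in a glasshouse, from before meiosis to maturity on an Affymetrix wheat array. Each of 7 stages had 3 arrays. The first, PM, was pre-meiosis. Prophase I was divided into LP, for leptotene to pachytene, and DA, which ran on from diplotene to the end of anaphase I. TT covered both telophases, T was the tetrad stage, IP immature pollen, and MAN stood for mature anthers. The 3 arrays of a stage carried 1 pool of RNA from staged anthers, so the SDs and p-values given here measure the spread between arrays, not between plants. A whole anther holds meiocytes or pollen together with tapetum, epidermis and other wall cells, and in such bulk tissue fewer cells of a type and less RNA per cell cannot be told apart.

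Transcripts that hold a steady level while others change are used to put RNA measurements on a common scale. They often encode parts of the machinery that most cells run at all times, such as protein synthesis, protein turnover and the cytoskeleton. An anther is a demanding tissue for such transcripts, because meiosis, the breakdown of the tapetum and the filling of pollen replace one population of cells by another. On an array normalized by RMA, a probe set called constant is constant relative to all others on the array, since RMA gives every array the same spread of probe intensities.

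Single probe sets of a tapetum marker and a meiocyte marker had wide ranges over the stages. Raftin1a (Ta.4195.1.S1_at), a protein of the tapetum and the pollen wall, had stage means between 8.68 in MAN and 13.93 at its highest (log2). The probe set of DMC1, the meiotic strand exchange protein, had its highest stage mean at 11.81 and its lowest, 5.64, in MAN. Profilins were listed as markers of pollen, and 1 of their probe sets, named below, had a range of 0.51. Other listed markers are not described here. The median level of all probe sets outside the controls lay between 5.56 and 5.71 on the 21 arrays. The mean of the 27 hybridization controls, which are spiked in before hybridization, was 11.08 to 11.30 in MAN. It was lowest, at 8.69, in IP replicate 1, and the remaining 17 arrays had 9.90 to 10.64.

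The level of the members covered most of the bright range. Their mean over the stages ran between 8.11 and 14.26 (log2), with a median of 9.93. Of the 66, 22 lay between 8 and 9, 12 between 9 and 10, 13 between 10 and 11, 7 between 11 and 12, 6 between 12 and 13 and 6 above 13. Set against all bright probe sets of the same level, members made up 1.53% of those between 8 and 9, between 0.455% and 0.749% of those in the bins up to 13, and 2.14% of the 281 above 13. The limit on the range was met by 0.738% of the bright probe sets, against 26.0% of the 13438 probe sets whose lowest stage mean was between 3 and 4. A dim probe set can be flat by reading background, which the level limit is meant to leave out.

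**Figure D1:**
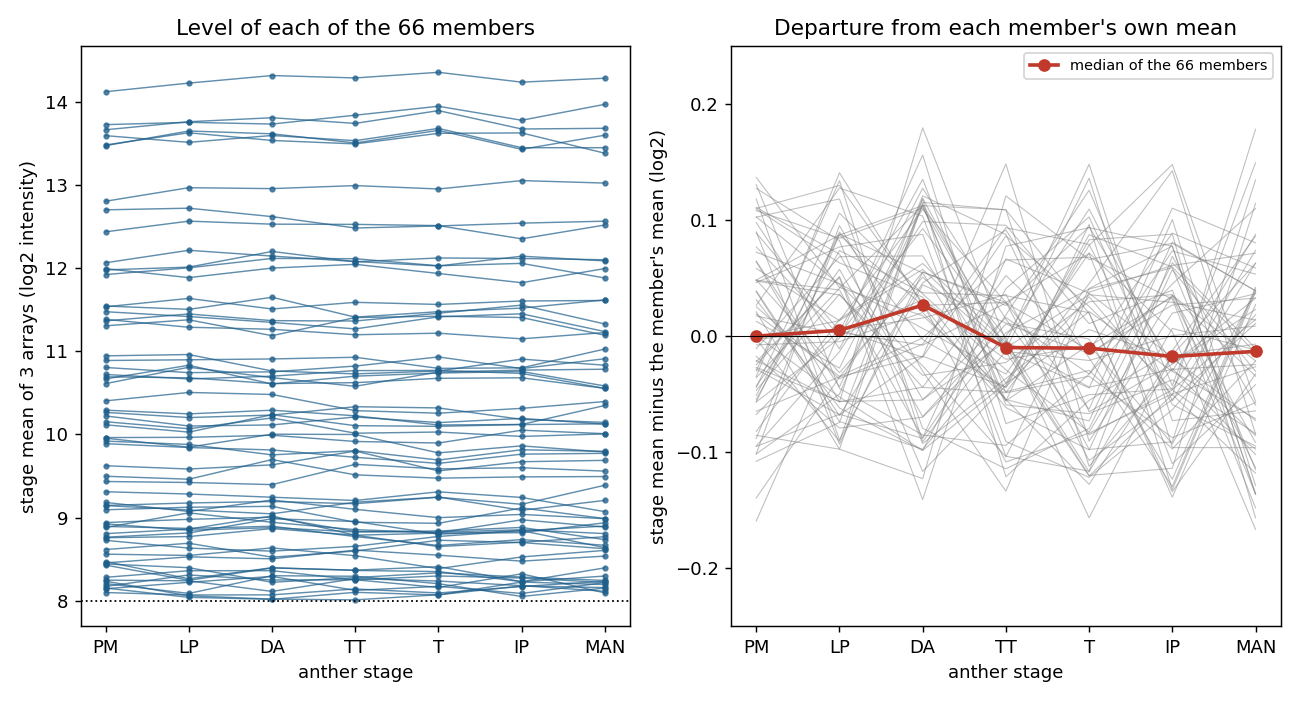
Left, the mean of 3 arrays (log2 intensity) of each of the 66 members at the 7 anther stages, 1 line per member, with the limit of 8 dotted. Right, the same means less each member's own mean, with the median of the 66 in red: the members lie between 8.11 and 14.26 and no stage mean moves a member by more than the selected range of 0.25.

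The range of the stage means, on which the members were selected, was 0.12 to 0.25 with a median of 0.23. In the other bright probe sets its median was 1.22, with quartiles of 0.77 and 1.90, and 61.3% had a range of at least 1, a 2-fold change. The smallest range belonged to Ta.2830.1.S1_at, at 0.12. Its values were 10.17, 10.37 and 10.13 in PM, 9.97, 9.99 and 10.34 in LP, 10.19, 10.13 and 10.02 in DA, 10.18, 10.29 and 10.16 in TT, 10.15, 10.09 and 10.19 in T, 10.20, 10.07 and 10.31 in IP, and 10.01, 10.15 and 10.21 in MAN. The arrays of each stage overlapped with those of every other stage. Its spread over the arrays of LP (SD 0.21, n = 3) was larger than the distance between any of its stage means.

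The next smallest ranges were 0.13 in Ta.12233.1.A1_at (mean level 11.58) and 0.14 in both Ta.1601.1.S1_at (10.64) and Ta.25530.3.S1_a_at (8.29). TaAffx.32360.1.S1_at, TaAffx.6748.1.S1_at and Ta.1021.1.S1_at followed at 0.15, TaAffx.109290.1.S1_at at 0.17, and Ta.17508.1.S1_at and Ta.7335.1.S1_x_at at 0.19. Just inside the range limit lay Ta.12806.1.A1_at, Ta.7631.1.S1_at, Ta.4372.1.A1_at and Ta.1705.3.S1_x_at at 0.249 and TaAffx.12523.1.A1_at at 0.248. Just outside it lay Ta.18143.1.A1_at at 0.253, Ta.15929.1.S1_x_at, Ta.7043.1.A1_at and Ta.5025.1.A1_at at 0.255 and Ta.359.1.S1_x_at at 0.256, which shows that the border of the set is a matter of thousandths. At the level limit the lowest stage means inside were 8.01 in TaAffx.22491.1.S1_at, 8.02 in Ta.15836.1.S1_at and 8.05 in Ta.12806.1.A1_at, and those outside were 7.97 in Ta.11554.1.S1_at, 7.94 in Ta.28796.1.S1_at and 7.83 in TaAffx.122624.2.S1_at.

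The 6 brightest members were near the top of the array's scale. Ta.1342.1.S1_s_at had the highest mean level, 14.26, followed by Ta.1520.1.S1_s_at at 13.82, Ta.23834.1.S1_at at 13.74, Ta.1449.1.S1_x_at at 13.56 and the 2 probe sets of the cluster Ta.28553 at 13.54. Only Ta.23834.1.S1_at among them has the plain ending _at, so they need not read 6 separate transcripts. Ta.1342.1.S1_s_at read 14.21, 14.08 and 14.06 in PM, 14.20, 14.23 and 14.23 in LP, 14.30, 14.29 and 14.35 in DA, 14.45, 14.05 and 14.35 in TT, 14.41, 14.41 and 14.24 in T, 13.71, 14.48 and 14.51 in IP, and 14.29, 14.27 and 14.29 in MAN. IP replicate 1 was the lowest of the 21 arrays and the other IP arrays were the highest, so that the IP mean of 14.23 hid the widest spread (SD 0.46, n = 3).

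Ta.23834.1.S1_at was the single member with a gene symbol in the annotation used here, LOC780682, which gives no name or function. It read 13.71, 13.73 and 13.55 in PM, 13.72, 13.77 and 13.78 in LP, 13.81, 13.82 and 13.79 in DA, 13.73, 13.73 and 13.75 in TT, 13.91, 13.95 and 13.81 in T, 13.24, 13.79 and 13.99 in IP, and 13.64, 13.68 and 13.72 in MAN. T was its highest stage and PM its lowest, and the IP arrays again enclosed all others. No member carried a name that would place it in a pathway, so nothing is said here of what the 66 encode.

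No single shape over development was shared by the members. The highest stage mean fell in DA for 18 of them, in PM for 12, in LP for 10, in T for 9, in TT and in IP for 6 each and in MAN for 5. The lowest fell in T and in MAN for 14 each, in IP for 10, in DA for 9, in PM for 8, in TT for 6 and in LP for 5. Between the last stage and the first, MAN was above PM in 31 members and below it in 35, with differences of -0.24 to 0.24 and a median of -0.02. These differences lie within the limit that chose the members, so no shape over development is read from the counts.

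Tests across all probe sets put this beside the rest of the array. By limma's moderated F test over the 7 stages, 68.2% of all probe sets outside the controls had an adjusted p under 0.05. Of the 66 members, 0 did. An unadjusted p under 0.05 in this test was met by 43426 probe sets, of which 0 were members. By limma's contrast of MAN minus PM, 61.3% of the probe sets were called and 0 members. Here an unadjusted p under 0.05 was met by 39531 probe sets, of which 1 was a member. The methods' own test on the arrays of MAN and PM alone called 28116 probe sets after adjustment, with 0 members among them. Without adjustment it called 33177, with 3 members among them. The rule chose members on these very contrasts, so the counts describe the selection and nothing is read from them. The SE of MAN minus PM had a median of 0.120 (log2) over the members and lay between 0.0987 and 0.152, which sets the size of the differences that could be seen. Among the members the smallest adjusted p for MAN minus PM was 0.0587 by limma, for Ta.7526.3.S1_x_at, which averaged 11.24 in MAN and 11.47 in PM.

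The triplicates show how far constancy of the means is from constancy of the arrays. The range over the 21 arrays was 0.40 to 0.90 in the members, with a median of 0.56, against a median of 1.54 in the other bright probe sets. The smallest were 0.40 in Ta.10502.1.S1_at, Ta.15836.1.S1_at, Ta.28570.1.A1_at and Ta.2830.1.S1_at, and 0.43 or 0.44 in Ta.11779.1.S1_at, TaAffx.111763.1.S1_s_at, Ta.1705.3.S1_x_at, Ta.7335.1.S1_x_at, TaAffx.6748.1.S1_at and Ta.25530.3.S1_a_at. These 10 were not the 10 with the smallest range of means: 4 were in both.

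Ta.10502.1.S1_at had the smallest range over the arrays and 1 of the wider ranges of stage means, 0.24. It read 9.38, 9.60 and 9.32 in PM, 9.45, 9.32 and 9.50 in LP, 9.43, 9.36 and 9.40 in DA, 9.60, 9.68 and 9.64 in TT, 9.72, 9.58 and 9.46 in T, 9.46, 9.68 and 9.66 in IP, and 9.50, 9.61 and 9.56 in MAN. All arrays of TT were above all arrays of DA, a step of 0.24 between the stage means. At the other end, TaAffx.16626.2.S1_s_at had a range over the arrays of 0.90 and one of 0.22 over the stage means. It read 8.59, 9.01 and 8.69 in PM, 8.78, 8.84 and 8.83 in LP, 8.88, 9.07 and 9.02 in DA, 8.95, 9.09 and 8.82 in TT, 8.77, 8.90 and 8.74 in T, 8.45, 8.73 and 9.35 in IP, and 8.96, 8.89 and 8.85 in MAN. Its lowest and highest arrays were both IP arrays. TaAffx.12523.1.A1_at (0.82), Ta.1342.1.S1_s_at (0.80), Ta.7437.1.S1_s_at (0.80) and TaAffx.91399.1.A1_at (0.79) had the next widest ranges over the arrays.

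Stages whose arrays did not overlap were rare in the members, as the choice of flat means requires. Of the 21 pairs of stages, the number in which the 3 arrays of one stage all lay above the 3 of the other was 3 for the median member, against 13 for the median of the other bright probe sets. Over all members and pairs the share was 15.0%, beside 59.9% in the other bright probe sets and 40.0% in all probe sets outside the controls, and nothing is read from it. The number was 0 for 9 members and 10 for Ta.3503.1.S1_at, whose PM arrays (11.00, 10.93 and 10.91) all exceeded its DA arrays (10.82, 10.74 and 10.73). That member was singled out after its values were seen.

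The spread of the triplicates depended on the stage more than on membership. The median SD of a member's triplicate was 0.147 in PM, 0.0918 in LP, 0.0485 in DA, 0.110 in TT, 0.0832 in T, 0.232 in IP and 0.0929 in MAN (log2, n = 3 arrays). In the other bright probe sets it was 0.165, 0.106, 0.0533, 0.112, 0.0800, 0.224 and 0.0973 in the same stages. The largest SD of a member lay in IP for 38 of the 66 and in PM for 15. An SD under 0.1 in all 7 stages was met by 0 of the 66 members and by 23 of the 8881 other bright probe sets. Without IP it was met by 1 member (1.52%) and by 181 of the others (2.04%), so nothing is read from the counts. That member, Ta.7375.1.S1_at, had SDs of 0.059 in PM, 0.057 in LP, 0.045 in DA, 0.032 in TT, 0.051 in T and 0.052 in MAN, and 0.229 in IP.

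IP replicates 1 and 3 were often at the ends of the members' values. IP replicate 1 was the lowest of the 21 arrays in 28 members and IP replicate 3 the highest in 20, while PM replicate 2 was the highest in 17. The median departure of the members from their own means was -0.20 on IP replicate 1 and 0.16 on IP replicate 3. On IP replicate 1 it was -0.10 in the 34 members with a mean level below 10, -0.29 in the 20 members between 10 and 12 and -0.42 in the 12 members above. IP replicate 1 was also the array with the lowest hybridization controls, at 8.69, and its highest single value was 14.32 where the other arrays reached 14.97 to 15.19. The part of these features in the members' spread was not tested. Without the IP arrays the range over the remaining 18 arrays was 0.22 to 0.74, with a median of 0.47 in place of 0.56, and the narrowest was that of Ta.1021.1.S1_at.

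**Figure D2:**
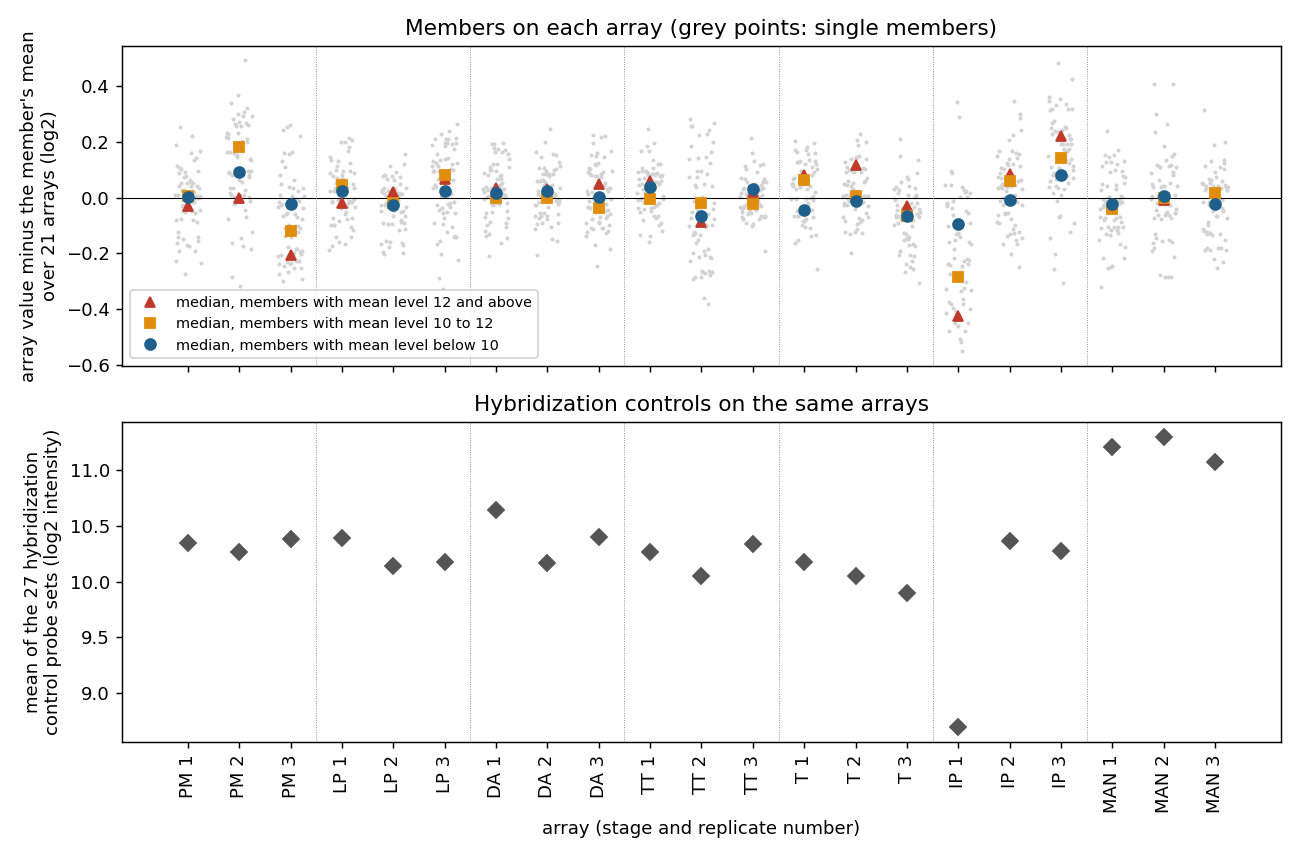
Upper panel, each member's value on each of the 21 arrays less its mean over the arrays (log2, grey points), with the median of the members below 10, between 10 and 12 and above 12 in mean level. Lower panel, the mean of the 27 hybridization controls on the same arrays (log2 intensity): IP replicate 1 is the array on which the brightest members (median -0.42) and the controls (8.69) are lowest. On the MAN arrays the controls are at 11.08 to 11.30, and the members' medians stay near 0, within the narrow range that the rule allows.

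On the MAN arrays the hybridization controls were the brightest of the series. The median departure of the other bright probe sets together with the members was -0.35 to -0.32 there. The members departed by -0.03 to 0.00 in the median. The rule holds each of their stage means within 0.25 of the others, so nothing is read from this contrast. With every array scaled to its hybridization controls, the arrays moved by -0.99 to -0.76 in MAN and by 1.62 for IP replicate 1. Such a scaling adds 1 constant to all probe sets of an array, so that probe sets chosen for flat RMA values have to leave the limits: the median range of the members became 1.43 and 0 of the 66 stayed within them, which follows from the size of the shifts. Which of the scales is nearer to RNA per anther or per cell was not tested.

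Variation between the members was measured as geNorm measures it for control genes: for each member, the mean over all other members of the SD of their log2 ratio across the 21 arrays, named M. A low M says that a member moves with the rest. M was 0.146 to 0.237 over the members, with a median of 0.173. Ta.7375.1.S1_at was the lowest and TaAffx.22491.1.S1_at, a member at the level limit, the highest. Because all members were chosen to be flat, a low M follows in part from the choice. Computed over the stage means in place of the arrays, M was 0.0887 to 0.134.

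Arrays that the rule had not used gave a further look at the same RNA pools. They are repeats of the same RNA, so a small range on them shows that the arrays repeat and says nothing of other plants. With the rule applied to 2 arrays of each stage and the range measured on the third, 48, 54 and 42 probe sets were chosen when replicates 1, 2 and 3 were held out, and 23, 31 and 19 of these were among the 66. On the held-out arrays their range over the 7 stages had a median of 0.573, 0.438 and 0.506. In all bright probe sets it was 1.28, 1.27 and 1.31. A held-out range of at most 0.5 was seen in 43.8%, 64.8% and 47.6% of those chosen, against 6.61%, 6.67% and 6.17% of the bright probe sets. The held-out range was wider than the limit of 0.25 in the median in each case, and it includes the spread of single arrays, which the mean of 3 arrays reduces.

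Sister probe sets, which carry the same cluster number as a member and so target the same or closely related transcripts, give a second reading of some members. The rule was applied to the sisters too, and those that met it are members, so neither the sisters described here nor the other bright probe sets include any within the limit of 0.25. The ranges are given as a description. Of the 66 members, 38 had sisters, 85 in all, and 42 of the sisters that were not members were bright at every stage. The range of their stage means had a median of 0.55 and lay between 0.28 and 2.04, against a median of 1.22 in the other bright probe sets. It was at most 0.5 in 18 of the 42 (42.9%) and in 8.77% of the other bright probe sets. Sisters may share probes or cross-hybridize with the member, 10 were designed on the very target of the member, and 13 of the 42 came from the cluster Ta.28553. Without that cluster the remaining 29 had a median of 0.56. Membership of a cluster by name does not show that 2 probe sets read 1 transcript.

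Sisters also departed from their member. Ta.7436.2.S1_at, a member with a mean level of 12.02, had sisters Ta.7436.3.S1_at and Ta.7436.1.A1_x_at with ranges of 2.04 and 1.60, both highest in T and lowest in MAN. Ta.1705.3.S1_x_at had a sister, Ta.1705.2.S1_a_at, with a range of 1.57, and Ta.1601.1.S1_at had Ta.1601.2.S1_a_at at 1.07. In all, 5 of the 42 had a range of at least 1, and MAN was the lowest stage in 21 of the 42. Bright probe sets as a whole departed by -0.35 to -0.32 in the median on the MAN arrays, so nothing is read from the 21. The sisters named here were picked after their values were seen. The difference between a member and its sisters was not tested.

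In 2 clusters there were 2 members each. In Ta.28553, Ta.28553.6.S1_x_at read 13.63, 13.52 and 13.28 in PM, 13.74, 13.65 and 13.48 in LP, 13.52, 13.51 and 13.57 in DA, 13.61, 13.27 and 13.59 in TT, 13.67, 13.67 and 13.51 in T, 13.31, 13.83 and 13.73 in IP, and 13.43, 13.32 and 13.38 in MAN. Ta.28553.8.S1_x_at had the same mean level, with stage means between 13.45 and 13.68. The 13 bright sisters of this cluster had ranges of 0.28 to 1.16. In Ta.7526, Ta.7526.2.A1_x_at and Ta.7526.3.S1_x_at had mean levels of 11.41 and 11.37 and ranges of 0.23 and 0.24. The first was highest in IP (11.55) and the second in PM (11.47), and both were lowest in MAN (11.33 and 11.24). All 4 carry the ending _x_at, given to probe sets some of whose probes match other sequences too.

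By ending, 44 members were of the plain kind (_at), 7 ended in _s_at, 12 in _x_at and 3 in _a_at. The share other than _at was 33.3%, against 39.3% of the other bright probe sets. Probe sets with names that begin TaAffx made up 24.2% of the members and 12.9% of the other bright probe sets. Among all probe sets outside the controls they made up 48.5%. The shares were not compared at equal level, so nothing is read from them.

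Known reference transcripts stood on both sides of the members' limit. The array's own control probe sets for wheat ubiquitin, the tag for protein breakdown, were among the flattest: the 3′ probe set had a mean level of 13.24 and a range of 0.13, and would be at rank 3 by range among the bright probe sets, and the middle one had 13.36 and 0.27. The 5′ probe set of the same transcript had a range of 1.19, so that 3 probe sets along 1 transcript ran from inside the limit to far outside it. The RNA had been amplified in 2 rounds, and the part of this in the 5′ range was not tested. The M of the 3 probe sets against the members was 0.18, 0.21 and 0.41. The 2 probe sets the study used as extra Q-PCR controls had ranges of 0.35 and 0.39 and mean levels of 14.42 and 11.63, both lowest in IP, and were left out of the rule. Actin control probe sets ran over 3.99 to 9.11 and were lowest before MAN, and the probe set of 18S rRNA ran over 1.72. Among the array's control probe sets for elongation factor 1-alpha and GAPDH, none had every stage mean above 8. Bright probe sets of translation factors outside the controls, TEF1 among them, are given below.

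Bright probe sets with a gene name give the members' range some context. Of these 51, 0 met the range limit, which 0.738% of all bright probe sets met, so that the number is too small to say whether named genes differ in this. Of the 51, 2 had a range of at most 0.5, 9 lay between 0.5 and 1, and 40 had a range of at least 1, of which 20 were at least 2. Their median was 1.53. The 2 flattest were Ta.2711.1.S1_x_at (UBC1/UBC2, ubiquitin-conjugating enzymes), with a range of 0.35 at a level of 12.43, and Ta.239.1.S1_at (Eif4B, a translation initiation factor), with 0.43 at 12.62. Profilin (Ta.5057.3.A1_at), which binds actin, had 0.51.

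Other genes of classes that are often taken as references had ranges near or above the median of 1.22. The TATA-binding protein TBP1 (Ta.15.1.S1_at) had a range of 1.20, alpha tubulin TUBA (Ta.812.1.S1_x_at) 1.30, TEF1 (Ta.659.2.S1_x_at) 1.48 and the translationally controlled protein TCTP (Ta.1310.1.S1_x_at) 1.47. Each was lowest in MAN, where bright probe sets as a whole departed by -0.35 to -0.32 in the median. Of 11 lists of genes by class, 8 matched at least 1 probe set and 6 a bright one, and members were found in 0. With so few bright probe sets in the lists and a share of members of 0.738% among the bright, that count tells nothing about the lists. The single bright probe set of the ubiquitin and proteasome list had a range of 0.35. The 5 bright translation factors had ranges of 0.43 to 2.39 with a median of 1.48, and the 11 bright probe sets of the cytoskeleton 0.51 to 3.59 with a median of 1.77. The median was 2.08 in the 4 of histones and 2.07 in the 3 of ATPases, and the 2 of carbohydrate metabolism had 1.73 and 2.27. The other bright probe sets had 1.22, and the differences were not tested. Among all probe sets outside the controls, 1273 had a symbol and 200 a name, so these counts cover a small share of the array.

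**Figure D3:**
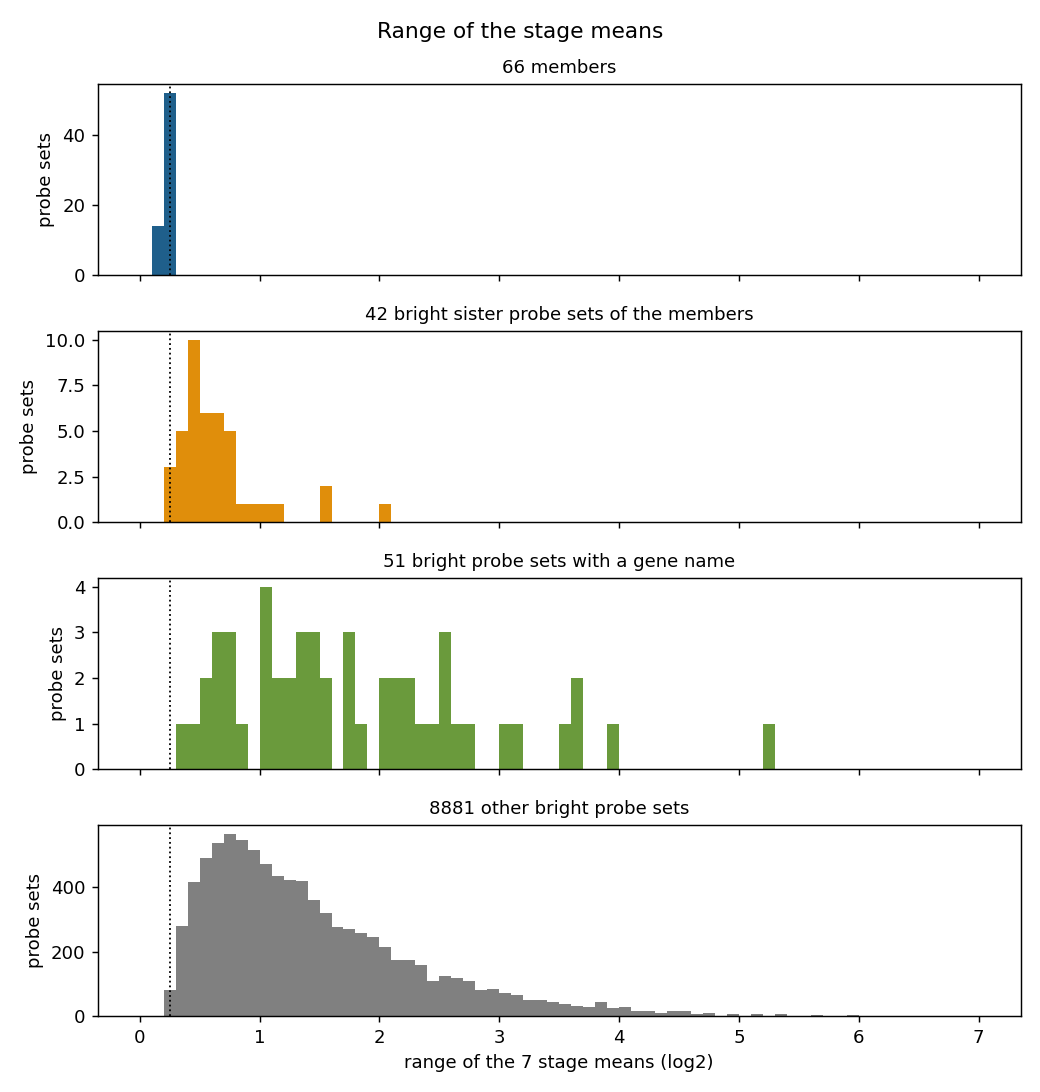
Range of the 7 stage means (log2) of the 66 members, their 42 bright sister probe sets, the 51 bright probe sets with a gene name and the 8881 other bright probe sets, as counts of probe sets in steps of 0.1, with the limit of 0.25 dotted. The sisters (median 0.55) lie lower than the other bright probe sets (median 1.22), and the genes with names (median 1.53) do not.

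Of the stages left out in turn, MAN changed the number of constant probe sets most. With PM, LP, DA, TT or T left out of the rule, 95 to 112 probe sets were bright and constant over the other 6 stages, and 58.9% to 69.5% of these were among the 66. With IP left out there were 179, of which the 66 were 36.9%. With MAN left out there were 617, of which the 66 were 10.7%. Thus 551 probe sets met both limits from PM to IP and did not meet them with MAN.

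In these 551, whose MAN mean lies outside the earlier ones by their definition, it was below all 6 earlier stage means in 353 and above all of them in 198. MAN less the mean of the earlier stages had a median of -0.42 and ran from -8.27 to 3.16. It reached at least 1 in either direction in 218, with 164 lower and 54 higher in MAN, and the MAN mean was at or below 8 in 109. In the members the same difference was -0.19 to 0.21. In the 551 the level limit applied to the 6 earlier stages only, so a MAN mean was free to fall below 8. Bright probe sets as a whole departed by -0.35 to -0.32 in the median on the MAN arrays. Nothing is read from the split between lower and higher. The MAN arrays also had the brightest hybridization controls, and scaling to these moved the MAN arrays by -0.99 to -0.76. On that scale a MAN mean below the earlier ones would stay below them, while one above them could change direction. The 551 were not recomputed on it.

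**Figure D4:**
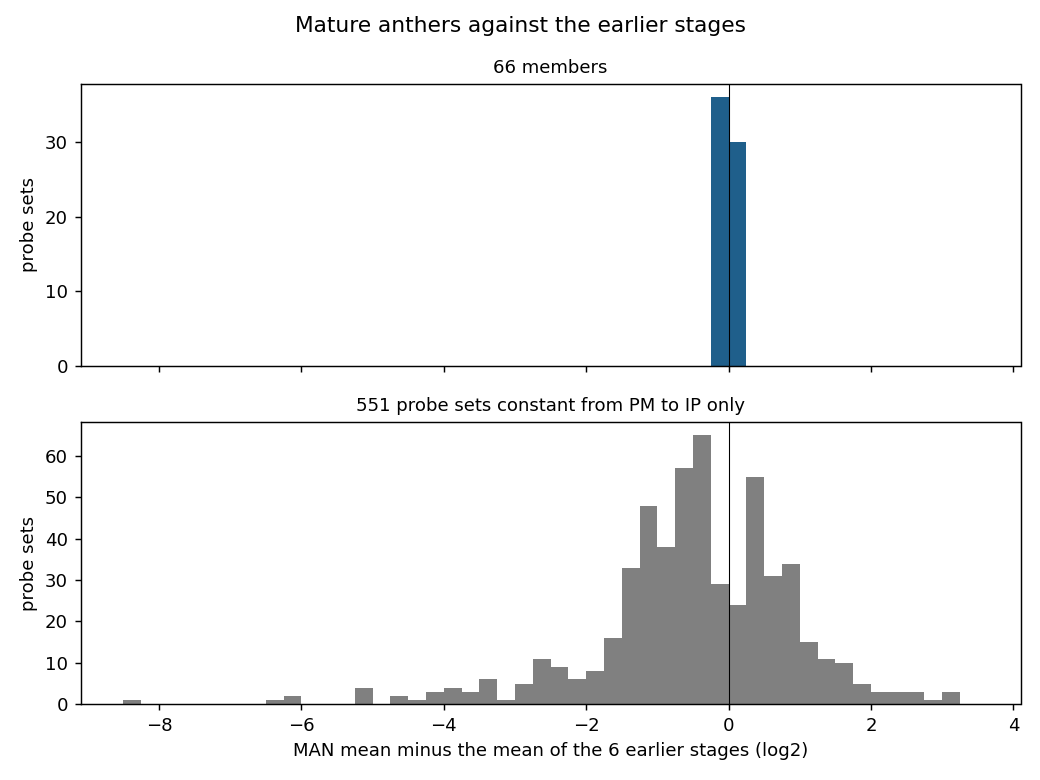
MAN mean less the mean of the 6 earlier stages (log2) in the 66 members and in the 551 probe sets that met the limits from PM to IP only, as counts of probe sets in steps of 0.25. The members are confined to -0.19 to 0.21 by the rule, and the others have a median of -0.42 and a tail on the lower side that ends at -8.27. The level limit did not hold the MAN means of these others, so nothing is read from the tail.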

How the data were processed

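Total RNA of whole anthers was amplified in 2 rounds, labelled with biotin and hybridized to 21 arrays, 3 per stage. The deposited table holds linear intensity values per probe set, between 6.09 and 37341, which the authors had normalized by RMA (version not given in the sources used here), and log2 was taken here. RMA ties every array to 1 distribution, so a level is relative to the other probe sets of its array. Probe sets the study dropped as duplicate or rogue carry no mark here and were not removed. Members and lists were chosen with earlier results of these data known. Tests used limma 3.58.1 (R 4.3.3) on all probe sets outside the controls over all 21 arrays, without covariates, with Benjamini-Hochberg adjustment at 0.05, and were tested on simulated data; descriptions used Python 3.11.15, pandas 2.3.3 and numpy 2.4.6. The number of arrays limits the precision.

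Probe sets named are the 10 with the smallest range of stage means, the 10 with the smallest range over the arrays, the 5 brightest and 5 dimmest, the 5 widest, those next to the limits, those with a symbol and those of the clusters with most members; others are named as such. Symbols came from GEO's platform annotation and RefSeq, and coordinates and sequences are not used here. Replicate numbers were not taken to pair arrays. Deviations from the stage means correlated between same-numbered arrays at -0.44 to 0.43 (median 0.01, 63 pairs). Between arrays of different number it was -0.36 to 0.39 (median -0.005, 126 pairs). A correlation over 0.1 was seen in 15 of the 63 and 19 of the 126, and the difference was not tested. Alternatives were other limits, other scalings, other stage summaries, other fits, and each stage or array left out.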

Additional observations from a re-analysis of the deposited data

How the results depend on the processing

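The number of members depended on the limits: 115 with a level above 7, 42 above 9, 4 with a range of at most 0.15 and 845 at most 0.5. It was 16, with 0 shared, when arrays were scaled to the hybridization controls. Arrays centred on the median gave 54, of which 26 were shared, medians of 3 arrays gave 91 with 42 shared, and log2 of the mean linear intensity gave 63 with 60 shared. Leaving out PM gave 111, LP 101, T 112, IP 179 and MAN 617. Leaving out single arrays gave 55 to 71, with 42 to 61 shared, fewest shared without IP replicate 1. The median range of stage means was 0.22 to 0.24 and the median range over arrays 0.50 to 0.56 without single arrays, and 1.43 and 2.47 scaled to the hybridization controls. The held-out median was 0.438 to 0.573 (0.506 with replicate 3 held out). Scaling to the hybridization controls shifts all probe sets of an array alike, so its values for the members follow from that construction.

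A minimum change of 1 left 19678 probe sets called between stages and 14503 between MAN and PM. With array weights, 4 members were called between stages, beside 44649 of all probe sets. Scaling to the hybridization controls gave 66 members, beside 43368 of all probe sets. One constant per array makes flat values differ between stages, so the member calls on that scale come from its construction. Without single arrays, 0 to 3 members were called between stages (3 without IP replicate 1). Between MAN and PM, array weights gave 1 member beside 37051 of all probe sets, and centring on the median gave 7 beside 34292. Scaling to the hybridization controls gave 54 beside 33038, again by construction for the members. The methods' t-test without adjustment gave 3 beside 33177. Without single arrays the members called numbered 0 to 4 (4 without PM replicate 3, 2 without IP replicate 1 or MAN replicate 1). All probe sets called numbered 39113 to 42164 between stages and 34760 to 38602 between MAN and PM without single arrays. The split of calls between MAN and PM was 21602 higher and 15919 lower, 16217 and 18075 centred on the median, and 2868 and 30170 scaled to the hybridization controls. With the replicate number as a replicate block, 41723 and 37533 probe sets and 0 and 0 members were called, against 41723 and 37521 without it.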
